A study of Mus musculus with 8 samples.

Results

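The genes described here encode the contractile apparatus of smooth muscle and its transcriptional control. The set of 33 genes was fixed by name: actin, myosin and their regulators, intermediate filaments, actin-linked adaptor and scaffold proteins, and the transcription factor Srf with its coactivator Myocd. A gene was followed on an Affymetrix Mouse Transcriptome Array 1.0 where the platform annotation gave a probe set this symbol and no other. This held for 31 of the 33 genes, of 30063 genes with such a probe set in all, and each of the 31 had 1 probe set. Myl6 and Pdlim7 had no probe set with 1 symbol and were not analysed here. Of the 31, 26 had a mean over the 8 arrays of more than 6.14 on the log2 scale, the middle value of the whole table, and were tested among 16232 genes. Actg2, Pln, Kcnmb1, Nexn and Rgs5 fell short of it.

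The RNA came from the thoracic aortas of 8 female mice, all carrying the tamoxifen-inducible recombinase Cdh5-CreERT2 and Mef2c f/f alleles. At 10 weeks of age, 4 mice received 5 daily tamoxifen injections (Mef2cCdh5EKO, here EKO) and 4 littermates (control) received only the vehicle, 10% ethanol in sunflower seed oil. Aortas were harvested 14 days after the first injection, and the lumen of each was flushed with TRIzol, so each array holds RNA from a single aorta. The recombinase is driven by the promoter of the endothelial cadherin gene, so the deletion is aimed at endothelium and not at the smooth muscle of the media. The comparison asks which transcripts of the flushed aortic lining differ after loss of Mef2c, a MADS-box transcription factor. Controls had no tamoxifen, so deletion and drug cannot be told apart. Mef2c itself read 9.62 to 9.88 on control and 9.56 to 10.03 on EKO arrays, a difference of -0.03 (SE 0.11, limma adjusted p = 0.946). The labels do not say which exons are floxed, so this probe set is no check of the deletion.

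Contraction of smooth muscle depends on actin and myosin filaments, with myosin light chain phosphorylated by Mylk and dephosphorylated by a phosphatase that Ppp1r12b targets and Ppp1r14a inhibits. Many of these genes are switched on by serum response factor (Srf), another MADS-box factor, which binds a short element called the CArG box and works with the coactivator myocardin (Myocd) in muscle or with the actin-sensing coactivators Mrtfa and Mrtfb in most cells. In the aorta the genes are best known from the medial smooth muscle that lies beneath the endothelium, although several, such as Flna and Actn1, are expressed in most adherent cells.

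The CArG box is the element that Srf binds, so some promoters that hold one or a near match are shown before the expression values. RefSeq promoter windows of build GRCm38.p6, reaching from 250 bases before to 50 bases after the start, were matched by symbol for 27 of the 33 genes. Tagln, Myh11, Myocd, Actg2, Nexn and Tgfb1i1 had no window, so these genes were not searched. The searched box has CC, then 6 bases that are A or T, then GG. It reads as a box of the same form on either strand. It occurred in at least 1 window of 4 of the 27 genes (14.8%), against 1.81% of 27025 genes with a window. The 4 genes were Srf, Cnn2, Myl9 and Myl6. With 1 base allowed to differ, 11 of the 27 genes had a box (40.7%), against 23.8% of all. Acta2 was among these 11. A match describes the letters of the window and does not show binding. Capitals mark full boxes in the windows of Srf (chr17:46556113-46556412, minus strand), Cnn2 (chr10:79988350-79988649, plus strand) and Myl9 (chr2:156775214-156775513, plus strand), and boxes with 1 differing base in that of Acta2 (chr19:34255324-34255623, minus strand), which has no full box.
Srf: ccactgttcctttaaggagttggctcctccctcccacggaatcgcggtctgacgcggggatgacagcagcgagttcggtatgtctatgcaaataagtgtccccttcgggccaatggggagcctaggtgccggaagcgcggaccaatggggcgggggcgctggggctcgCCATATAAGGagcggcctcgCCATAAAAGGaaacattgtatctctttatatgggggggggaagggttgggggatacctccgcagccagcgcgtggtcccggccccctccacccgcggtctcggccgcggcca
Cnn2: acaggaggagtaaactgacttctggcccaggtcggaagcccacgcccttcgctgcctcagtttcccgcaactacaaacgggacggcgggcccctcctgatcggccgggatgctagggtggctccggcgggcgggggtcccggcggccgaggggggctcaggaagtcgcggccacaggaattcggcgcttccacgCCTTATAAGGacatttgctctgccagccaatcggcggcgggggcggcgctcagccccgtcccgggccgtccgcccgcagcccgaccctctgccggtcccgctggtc
Myl9: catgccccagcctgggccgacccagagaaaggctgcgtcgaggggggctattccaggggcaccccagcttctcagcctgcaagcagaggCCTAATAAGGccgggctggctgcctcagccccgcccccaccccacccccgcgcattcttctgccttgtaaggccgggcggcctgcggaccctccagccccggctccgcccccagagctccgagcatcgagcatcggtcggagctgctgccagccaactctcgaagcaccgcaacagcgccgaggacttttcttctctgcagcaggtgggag
Acta2: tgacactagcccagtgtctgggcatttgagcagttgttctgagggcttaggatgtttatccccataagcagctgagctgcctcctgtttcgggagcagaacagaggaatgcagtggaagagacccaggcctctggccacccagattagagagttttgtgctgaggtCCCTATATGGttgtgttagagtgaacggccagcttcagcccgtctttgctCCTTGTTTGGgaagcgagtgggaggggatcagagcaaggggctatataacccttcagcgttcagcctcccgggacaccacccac
The Srf window holds 2 full boxes, which start 82 and 62 bases before the start site. The Cnn2 box starts 56 bases and the Myl9 box 161 bases before it. The Acta2 boxes, CCCTATATGG and CCTTGTTTGG, start 84 and 34 bases before it.

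No difference between EKO and control arrays passed the test in the 26 genes tested. With limma, 0 passed the Benjamini-Hochberg threshold of 0.05 over all genes tested (0.0% of the 16232 passed), and the smallest adjusted p among the 26 was 0.597. At an unadjusted p under 0.05 the count was also 0 of 26, where 8.93% of all genes tested had such a p. The groups overlapped in all 26, while they did not overlap in 6.08% of all genes. In EKO arrays 14 genes averaged higher and 12 lower, and 44.9% of all genes averaged higher. The median difference, EKO minus control, was 0.01, against -0.02 over all genes tested, and the median size of the difference was 0.09 against 0.10. That median has no settled sign: it was -0.07 with a level filter set at the 75th percentile, -0.02 with quantile normalization and -0.06 without EKO array 1, where 10 of 26 genes averaged higher. Among the 16 genes above the medians of the array's negative control probe sets on all arrays, 7 averaged higher and 9 lower, with a median of -0.07. A further 7 of the 26 lay below those medians on all arrays, and there an interval describes the reading of the probe set and does not bound the change of the transcript. For 17 of the other 19 the 95% confidence interval lay within a 2-fold change either way, and for 15 within 1.5-fold. The exceptions to the 2-fold limit were Acta2 and Tagln. Among the 19, Mylk, Myl9 and Tpm2 exceeded those medians on only 2, 4 and 1 arrays, so their intervals have the same limit. Only 4 genes exceeded the 95th percentile of the negative control probe sets on every array.

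**Figure D1:**
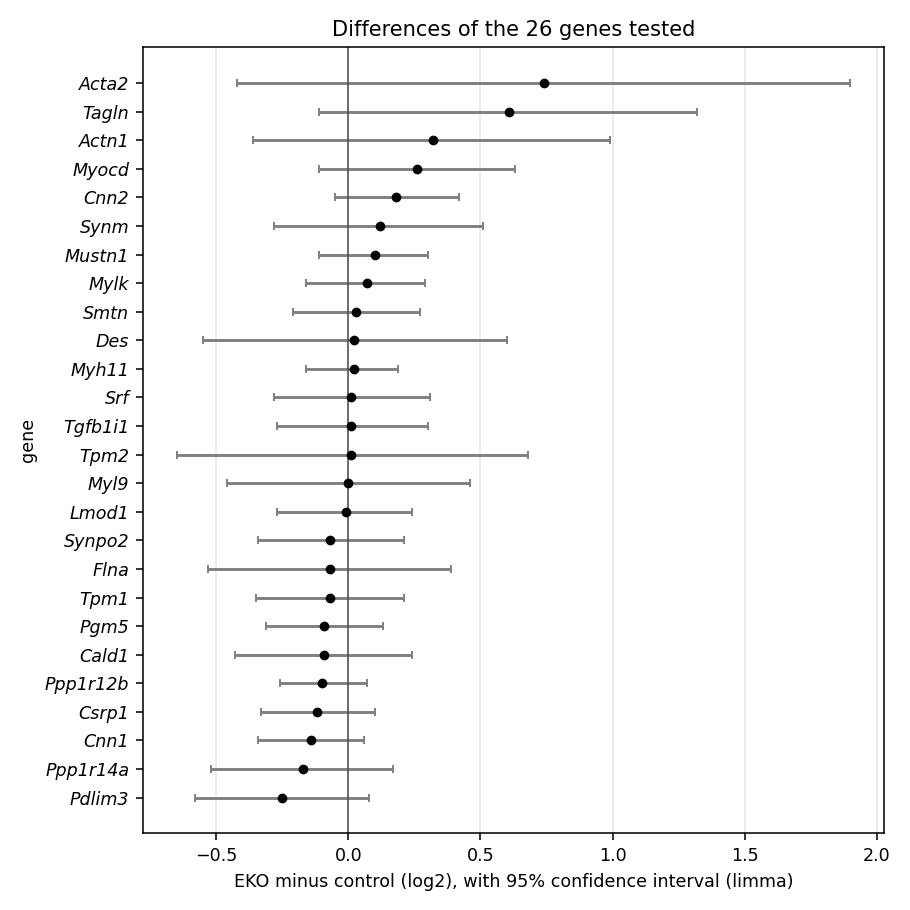
Difference between EKO and control arrays (log2, EKO minus control) for the 26 genes tested, as points with 95% confidence intervals from limma. Every interval spans 0, and those of Acta2 and Tagln are the widest.

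Acta2, which encodes smooth muscle alpha-actin, varied more than any other of these genes. Its log2 expression was 9.68, 11.53, 10.81 and 10.49 on control arrays 1 to 4, and 12.39, 11.53, 11.41 and 10.14 on EKO arrays 1 to 4. Control array 1 and EKO array 4 were low and EKO array 1 was high, and the groups overlapped over most of their range. From the lowest to the highest array Acta2 spanned 2.71, a 6.53-fold range that exceeded the range of 99.4% of genes tested. Means were 10.63 ± 0.77 in control and 11.37 ± 0.93 in EKO arrays (SD, n = 4 each), a difference of 0.74 (SE 0.51, limma adjusted p = 0.655). The interval reached from -0.42 to 1.90, or from 0.748-fold to 3.73-fold. Leaving out EKO array 1 gave 0.40 and leaving out EKO array 4 gave 1.15, and neither passed the threshold.

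Tagln encodes transgelin, an actin-binding protein that is abundant in smooth muscle. It read 9.09, 9.78, 9.58 and 9.37 on control arrays 1 to 4 and 11.03, 9.84, 9.90 and 9.48 on EKO arrays 1 to 4. EKO array 1 again stood highest and control array 1 lowest, and EKO array 4 lay within the control range. The means of 9.45 ± 0.29 and 10.06 ± 0.67 (SD, n = 4 each) differed by 0.61 (SE 0.31, limma adjusted p = 0.597). It was 0.28 when EKO array 1 was left out and 0.80 when EKO array 4 was, again short of the threshold.

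Acta2 and Tagln covaried over the arrays by Pearson's r, while the rank correlation missed the adjusted threshold. Acta2, chosen as the reference after its values were seen, was set against each of the 25 other genes tested, over 8 arrays. For Tagln Pearson's r was 0.90 (exact permutation p = 0.000446, adjusted over the 25 relations 0.0112) and Spearman's rho 0.88 (exact permutation p = 0.00724, adjusted 0.134). Without control array 1 and EKO array 1, the arrays farthest from the Acta2 median, r was 0.91, and with each group's mean subtracted it was 0.88. Groups of 4 are too small for a correlation within each. Synpo2, which encodes the actin-bundling protein synaptopodin 2, came next, with r = 0.76 (exact permutation p = 0.0247, adjusted 0.309) and rho = 0.86 (exact permutation p = 0.0107, adjusted 0.134). For Synpo2 r was 0.72 without the same arrays, and 0.98 with each group's mean subtracted, above the 0.88 of Tagln. The relation of Synpo2 did not pass the adjustment, and no other of the 25 had an adjusted p below 0.63 by Pearson's r. For Srf r was 0.67 (exact permutation p = 0.0756, adjusted 0.63) and rho 0.55 (exact permutation p = 0.171, adjusted 0.974). Its r was 0.52 without those arrays and 0.73 with each group's mean subtracted. For Myh11 r was 0.15 (exact permutation p = 0.735, adjusted 0.836) and rho -0.02 (exact permutation p = 0.977, adjusted 0.977), and r was -0.90 without those arrays, over a Myh11 range of 0.25.

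**Figure D2:**
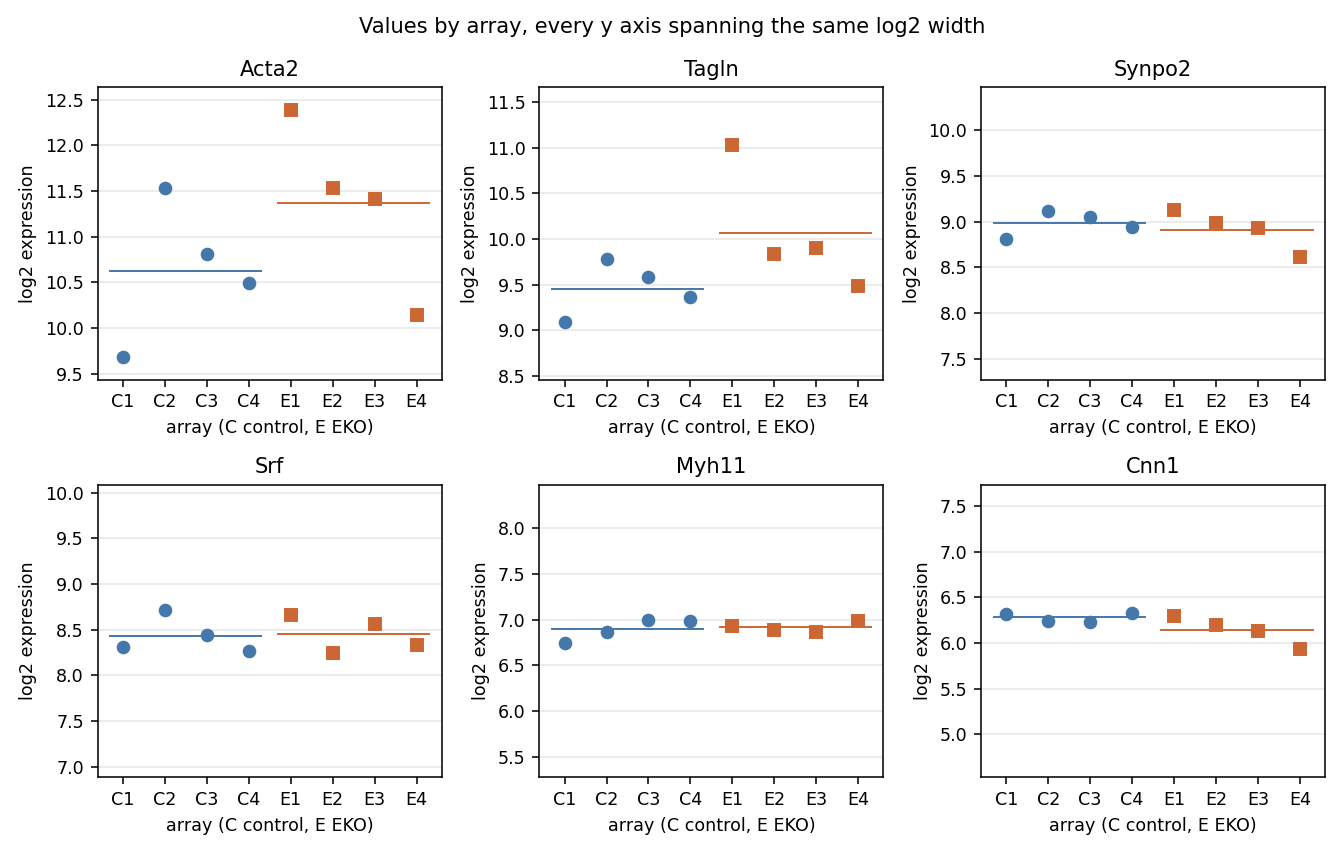
Log2 expression of 6 genes on control arrays 1 to 4 (C1 to C4, circles) and EKO arrays 1 to 4 (E1 to E4, squares), 1 point per array, with the group mean as a line. Acta2 spans 2.71 and Tagln 1.94, while Myh11 spans 0.25 and Cnn1 0.40 on axes of equal width.

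Myh11 and Cnn1 read below the medians of negative control probe sets on every array. The array carries 5222 control probe sets marked neg, whose medians lay between 7.34 and 7.45 on the 8 arrays, and a gene's value was placed among them array by array. Myh11, the smooth muscle myosin heavy chain, read 6.75, 6.87, 7.0 and 6.99 on control arrays 1 to 4 and 6.93, 6.89, 6.87 and 6.99 on EKO arrays 1 to 4. It exceeded 37.3 to 44.4% of the neg probe sets and differed by 0.02 (SE 0.08, limma adjusted p = 0.950), within an interval of -0.16 to 0.19. Cnn1, the smooth muscle calponin, read 6.32, 6.24, 6.23 and 6.33 on control arrays and 6.29, 6.20, 6.13 and 5.93 on EKO arrays 1 to 4. EKO array 4 was lowest, and the other EKO arrays lay within or just below the control range. Its difference of -0.14 (SE 0.09) had a limma adjusted p of 0.636.

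In all, 12 of the 31 genes lay below the neg median of the array on all 8 arrays, 16 lay above it on all 8, and 3 (Mylk, Myl9 and Tpm2) crossed it. The 12 were Myh11, Cnn1, Cnn2, Lmod1, Des, Myocd, Synm, Actg2, Pln, Kcnmb1, Nexn and Rgs5. The median over the whole table, 6.14, was itself below the neg medians, so such a reading is common on these arrays and not particular to these genes. The share of all genes below the neg median was not counted. Pgm5, Csrp1, Flna and Actn1 exceeded the 95th percentile of the neg probe sets on every array, and Acta2 did so on 1 array. A value near the neg level does not show that a transcript was lacking. Whether these probe sets report their transcripts was not tested. The endothelial genes Robo4 (5.93 to 6.54) and Kdr (6.42 to 7.22, named after its values were seen) also read below the neg medians. So did the collagen genes Col1a2 (6.77 to 7.04) and Col3a1 (6.54 to 7.09). In bulk RNA, fewer cells of a type and less RNA per cell cannot be told apart.

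**Figure D3:**
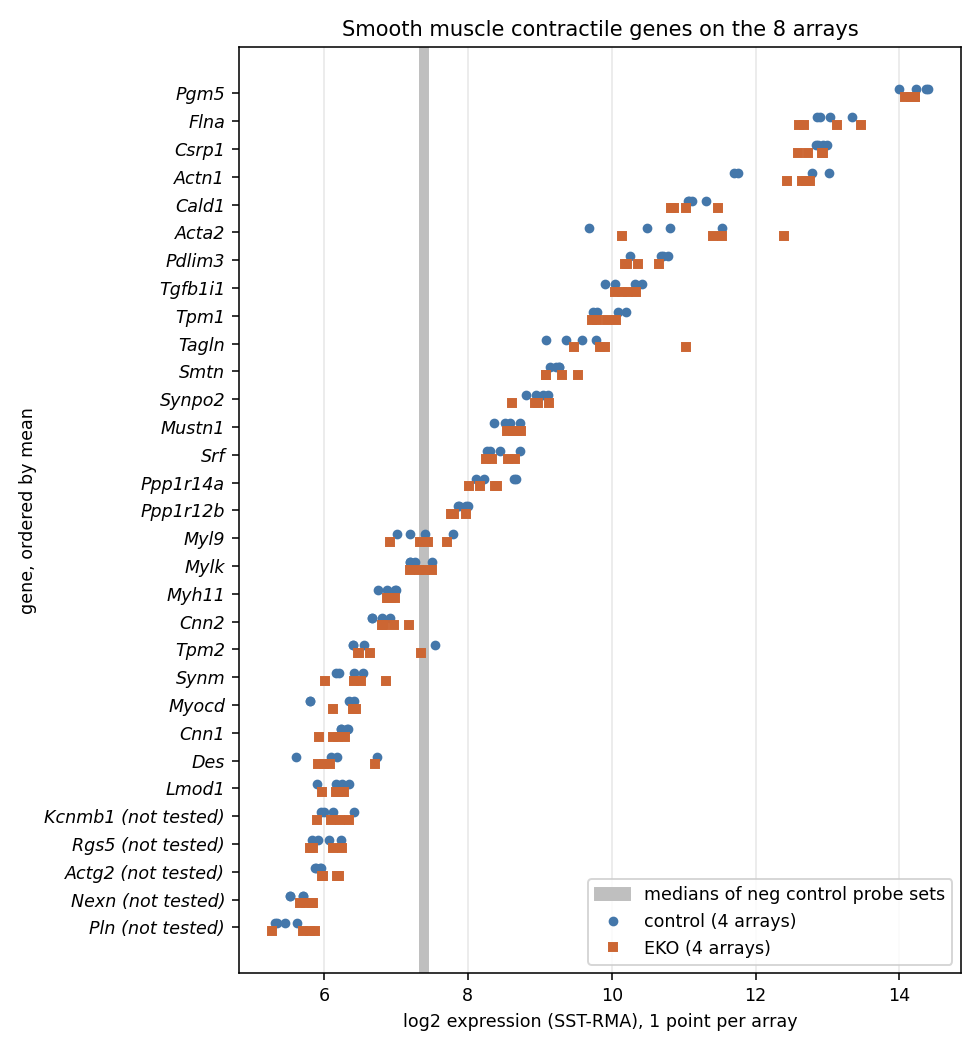
Log2 expression of the 31 genes on each of 4 control (circles) and 4 EKO (squares) arrays, ordered by mean, with the range of neg control medians (7.34 to 7.45) as a grey band. The control and EKO points overlap in every gene but Actg2, and 12 genes lie below the band on all arrays.

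The labelled tissue is thoracic aortic endothelium, and 12 of 14 endothelial markers read above the neg median on at least 1 array, while Kdr and Robo4 lay below it on all 8. Pecam1 lay between 18.07 and 18.23, Cdh5 between 16.23 and 16.52 and Vwf between 14.83 and 15.85 (all 3 named after their values were seen). Of 14 endothelial markers tested, 0 passed the limma threshold, with a median difference of 0.00. Their mean per array lay between 12.46 and 12.71 in control and between 12.45 and 12.67 in EKO arrays. It was highest on control array 1 (12.71) and EKO array 4 (12.67), the arrays with the least Acta2, yet EKO array 1, with the most Acta2, came next at 12.58. Other smooth muscle genes outside the contractile set lay mostly at neg levels: 7 of 11, among them the integrin Itga8 (6.85 to 7.37) and the receptor Notch3 (6.49 to 6.69), were below the neg median on all arrays. Of 9 tested, 3 were higher and 6 lower in EKO arrays, 0 passed the limma threshold and the median difference was -0.07, with Itga8 at -0.23, Aoc3 at -0.35, Notch3 at 0.10 and Mcam at 0.25. The mean of the 9 was 7.89 to 8.08 in control and 7.80 to 8.07 in EKO arrays. The share of smooth muscle RNA in these differences was not tested.

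The transcription factors at the head of the programme did not pass the test. Srf read 8.31, 8.72, 8.44 and 8.27 on control arrays 1 to 4 and 8.66, 8.25, 8.56 and 8.33 on EKO arrays 1 to 4. The groups covered nearly the same range, and the difference was 0.01 (SE 0.13, limma adjusted p = 0.975; interval -0.28 to 0.31). Myocd read 5.80, 5.80, 6.41 and 6.35 on control arrays 1 to 4 and 6.12, 6.40, 6.44 and 6.41 on EKO arrays 1 to 4. Control arrays 1 and 2 were low and control arrays 3 and 4 lay within the EKO range. Myocd differed by 0.26 (SE 0.16, limma adjusted p = 0.636), at a level that exceeded only 23.0 to 34.2% of the neg probe sets. Tgfb1i1, a focal adhesion protein also known as Hic-5, differed by 0.01 (interval -0.27 to 0.30). Of the genes with a full CArG box in the windows above, Srf stood at a difference of 0.01, Cnn2 at 0.18 and Myl9 at -0.00.

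Around Srf, the fixed list of 8 cofactors had 7 tested members, of which 0 passed the limma threshold and 1 was higher and 6 lower in EKO arrays (median difference -0.08). Elk1, a ternary complex factor that binds DNA next to Srf, differed by -0.17 (SE 0.10, limma adjusted p = 0.630), Elk3 by -0.14, the LIM protein gene Csrp2 by -0.16 and Mrtfa by 0.05. Of 13 tested Srf targets that are expressed in most cells, 0 passed, with 8 higher, 5 lower and a median difference of 0.06. Actb, the cytoplasmic beta-actin, read 15.95 to 16.03 on control and 15.97 to 16.23 on EKO arrays and differed by 0.10 (SE 0.07, limma adjusted p = 0.677). Fhl1 differed by -0.19, Tpm3 by 0.09 and the immediate early gene Fosb by 0.86. For Fosb, EKO array 2 stood at 9.31, and the remaining arrays at 5.89 to 7.61.

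Among regulators of myosin phosphorylation no gene passed the test. Ppp1r12b, a myosin-targeting subunit of the phosphatase, read 7.86, 8.0, 7.88 and 7.97 on control arrays 1 to 4 and 7.97, 7.78, 7.76 and 7.81 on EKO arrays 1 to 4. EKO array 1 matched control array 4, and the other EKO arrays lay below all controls. The difference was -0.10 (SE 0.07, limma adjusted p = 0.682). Ppp1r14a, the phosphatase inhibitor CPI-17, read 8.23, 8.64, 8.11 and 8.67 on control arrays and 8.40, 8.17, 8.37 and 8.01 on EKO arrays 1 to 4. Controls fell into a high and a low pair, and only EKO array 4 lay below them all. Its difference was -0.17 (SE 0.15, limma adjusted p = 0.715). Mylk, the myosin light chain kinase, differed by 0.07 and Myl9, a regulatory light chain, by -0.00 (interval -0.46 to 0.46).

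A wider list of 21 genes that control contraction had 15 with a probe set and 10 tested. Of the 15, 6 lay below the neg median on all arrays. None of the 10 passed the limma threshold. In EKO arrays 1 was higher and 9 lower, where 44.9% of all genes averaged higher, and the median difference was -0.11. An unadjusted limma p under 0.05 was found for 2 of 10, against 8.93% of all genes. Ppp1cb, a catalytic subunit of the myosin phosphatase, read 12.93, 12.36, 12.92 and 12.81 on control arrays and 12.60, 12.31, 12.39 and 12.41 on EKO arrays 1 to 4. Control array 2 lay among the EKO arrays, and the other controls lay above them. The difference was -0.33 (SE 0.13, limma adjusted p = 0.550). Arhgef1, a guanine nucleotide exchange factor for RhoA, read 9.24 to 9.33 on control and 9.0 to 9.20 on EKO arrays, without overlap. It was the only such gene of the 10, and 6.08% of all genes tested did not overlap. Its difference was -0.16 (SE 0.07, limma adjusted p = 0.552). Ppp1r12a differed by -0.13 and Arhgef12 by -0.09.

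Actin-binding proteins of the contractile filament did not pass either, with differences between -0.14 (Cnn1) and 0.18 (Cnn2) apart from Tagln. Cnn2, a calponin found in many cell types, read 6.66, 6.80, 6.67 and 6.92 on control arrays 1 to 4 and 7.18, 6.80, 6.83 and 6.97 on EKO arrays 1 to 4. EKO arrays 1 and 4 lay above the controls and the other EKO arrays within them. Its difference was 0.18 (SE 0.10, limma adjusted p = 0.617). Caldesmon (Cald1) differed by -0.09, smoothelin (Smtn) by 0.03, tropomyosin 1 (Tpm1) by -0.07, Synpo2 by -0.07 and leiomodin 1 (Lmod1) by -0.01. On EKO array 1 Cald1 read 11.48 and Smtn 9.53, the highest value of each gene. Leaving out that array, Cald1 differed by -0.24 (limma adjusted p = 0.378).

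Adaptors and scaffolds of the Z-disc and adhesion plaque included the 4 genes that stood farthest above the neg probe sets. Pdlim3, a PDZ and LIM protein that binds alpha-actinin, read 10.71, 10.78, 10.26 and 10.68 on control arrays 1 to 4 and 10.36, 10.18, 10.21 and 10.66 on EKO arrays 1 to 4. Control array 3 and EKO array 4 each lay with the other group. The difference was -0.25 (SE 0.14, limma adjusted p = 0.620), the lowest of the 26. Csrp1, a LIM protein of the actin cytoskeleton, read 12.99, 12.93, 12.84 and 12.87 on control arrays and 12.93, 12.73, 12.92 and 12.59 on EKO arrays 1 to 4. EKO arrays 2 and 4 lay below all controls and the rest within them. It differed by -0.12 (SE 0.09, limma adjusted p = 0.693).

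Actn1, the alpha-actinin of non-muscle and smooth muscle cells, read 13.02, 12.78, 11.70 and 11.76 on control arrays 1 to 4 and 12.76, 12.64, 12.70 and 12.44 on EKO arrays 1 to 4. Control arrays 3 and 4 were low, and the EKO arrays lay between the low and the high controls. The difference was 0.32 (SE 0.30, limma adjusted p = 0.734), and it was 0.11 without control array 3 and 0.55 without control array 1. Control arrays 3 and 4 also had the highest mean of the adipocyte markers, 10.44 and 10.18, against 7.67 to 9.94 on the other arrays. The 9.94 was on EKO array 1, where Actn1 was not low (12.76). The mean of the fibroblast markers was likewise highest on control arrays 3 and 4, 9.23 and 9.36, against 8.47 to 8.97 on the other arrays. With the adipocyte mean as a covariate the Actn1 difference was 0.16. What part adipose or other tissue has in that difference was not tested further. Flna, filamin A, differed by -0.07, with 13.47 on EKO array 1 and 12.60 on EKO array 2. Pgm5, the phosphoglucomutase-like protein aciculin, differed by -0.09 and the small nuclear protein gene Mustn1 by 0.10.

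Desmin (Des) and beta-tropomyosin (Tpm2) are shared with striated muscle, and both were highest on the arrays where the mean of its markers was highest. Tpm2 read 6.40, 6.40, 6.56 and 7.54 on control arrays 1 to 4 and 7.35, 6.64, 6.47 and 6.49 on EKO arrays 1 to 4. Des read 6.09, 5.61, 6.18 and 6.74 on control arrays and 6.71, 6.0, 5.92 and 6.08 on EKO arrays 1 to 4. Control array 4 and EKO array 1 stood above the others in each gene. The mean of 7 tested striated muscle markers was 7.65 on control array 4 and 7.31 on EKO array 1, while the remaining arrays lay between 6.40 and 6.68. Not every marker followed that mean: Mb, Ckm and Myl1 were highest on control array 4 and EKO array 1. Tnnt2 instead was lowest on control array 4 (6.64) and read 6.81 on EKO array 1. Of the 13 striated markers with a probe set, 10 lay below the neg median on all arrays. The troponin gene Tnnt2 (0.18), myoglobin (Mb, 0.27), Ckm (0.12) and Myl1 (-0.13) had the smallest p, and 0 of 7 passed the limma threshold. The group differences were 0.01 for Tpm2 (SE 0.29, limma adjusted p = 0.991) and 0.02 for Des (SE 0.25, limma adjusted p = 0.981). For Tpm2 the value was 0.28 without control array 4 and -0.19 without EKO array 1. Synm, which encodes the desmin partner synemin, was highest on EKO array 1 as well (6.86) but read 6.42 on control array 4, and it differed by 0.12. The part of striated muscle RNA in these values was not tested.

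**Figure D4:**
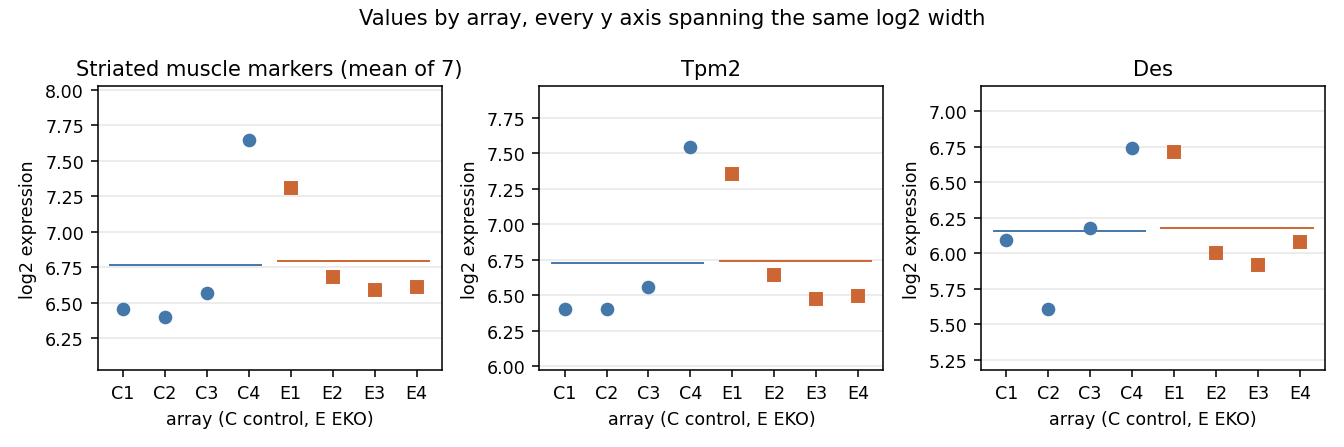
Mean log2 expression of 7 striated muscle markers, and log2 expression of Tpm2 and Des, on control arrays 1 to 4 (C1 to C4) and EKO arrays 1 to 4 (E1 to E4), with the group mean as a line. Control array 4 and EKO array 1 are the highest arrays in all 3 panels.

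The 5 genes under the level filter were compared in a fit without it, over 30063 genes. Actg2, the enteric smooth muscle gamma-actin, read 5.88, 5.96, 5.89 and 5.94 on control arrays 1 to 4 and 6.18, 6.21, 5.99 and 5.97 on EKO arrays 1 to 4. All EKO arrays lay above all controls, by a margin of 0.01 at the closest, which held for 5.91% of the 30063 genes in either direction. The difference was 0.17 (SE 0.08, limma adjusted p = 0.556), at a level that exceeded 24.1 to 29.6% of the neg probe sets. Actg2 is close in sequence to Acta2, and whether its probes also read that transcript was not tested. Nexn, the actin-binding nexilin, differed by 0.16 and phospholamban (Pln) by 0.22, while the potassium channel subunit Kcnmb1 (0.01) and Rgs5 (-0.00), a marker of pericytes and arterial smooth muscle, had the smallest differences of the 5. None passed the limma threshold (adjusted p 0.556 to 0.993). Of the 8 pericyte markers with a probe set, 7 lay below the neg median on all arrays. Of the 2 tested, Pdgfrb differed by -0.18 and Cox4i2 by 0.29.

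EKO array 1 was the highest array in 8 of the 26 genes tested (30.8%), against 9.35% of all genes, and the lowest in 0. Control array 1 was the lowest in 8 of 26 (30.8%), against 11.6% of all genes, and the highest in 3. Both held in the same gene for 3 of the 26: Acta2, Tagln and Cnn2. Control arrays 2 and 4 were each the highest in 6 of 26 (23.1%), against 16.3% and 13.5% of all genes. EKO arrays 2 and 4 were each the lowest in 5 of 26 (19.2%), against 22.6% and 8.78% of all genes. Among the 16 genes above the neg median on all arrays, EKO array 1 was highest in 6 and control array 2 in 5. In these 16 the array most often lowest was EKO array 2, in 5, followed by control array 1, in 4. Genes of smooth muscle phenotypic modulation, 7 tested, had 0 past the limma threshold, 4 higher and 3 lower, with a median difference of 0.01. Among them the transcription factor Klf4 differed by -0.15, Mgp, the matrix Gla protein, by 0.09, Lum by -0.41 and Lgals3 by 0.10. The mean of that list was also highest on EKO array 1 (12.34), and lowest on EKO array 4 (11.51).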

How the data were processed

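Per the labels, the authors labelled 5 ng of total RNA per array and ran SST-RMA in the Expression Console software. Methods of the RMA family equalise signal distributions between arrays, so a shift shared by most genes would not be seen. The deposited table holds the resulting log2 values, 1 row per probe set. The software version and genome build of the array values are not given in the sources used here. The table held 72688 probe sets, 6732 of them controls. The platform annotation gave 30604 probe sets 1 symbol and 2146 several. Symbols were updated through the RefSeq table of GRCm38.p6 (1135 changed), and the probe set with the highest mean was kept per symbol. Genes with a mean over 6.14, the median over the whole table, entered a fit of EKO minus control without covariates (lmFit and eBayes of limma 3.58.1, run in R 4.3.3). Adjusted p-values are over all 16232 genes. The fit was also run on simulated data, which checks its code and not its assumptions for these arrays. The number of arrays limits the precision, and per the labels each array is a separate aorta and controls were littermates, with no litter given for a mouse.

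All 33 genes are accounted for. Per-array values are given for Acta2, Tagln, Myh11, Cnn1, Myocd, Srf, the 6 tested genes next by p, and some chosen after their values were seen (Actg2, Des, Tpm2, Ppp1cb). From 15 other lists at most the 4 genes with the smallest p are named, with Pecam1, Cdh5, Vwf and Kdr added after their values were seen. The genes and lists were chosen with earlier results of these data known. Alternatives covered the level filter, probe set choice, quantile normalization, centring, unmoderated variance, array weights, an adipocyte marker covariate, the replicate number as a block, and each array left out.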

Additional observations from a re-analysis of the deposited data

Results flagged for a closer look

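In 62 groups of 4 arrays (31 genes, 2 groups each), 2 held an array far from the other 3 by Dixon's test at the 95% level, which chance gives in about 1 group in 20. For Tpm2 this was control array 4, at 7.54, with the remaining controls at 6.40 to 6.56. For Myocd it was EKO array 1, at 6.12, with the remaining EKO arrays at 6.40 to 6.44. The Myocd values were all below the medians of the neg control probe sets.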

How the results depend on the processing

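Under all 17 alternatives 0 of the genes tested, and 0 of all genes, passed the limma threshold, and the smallest adjusted p of any contractile gene was 0.378. At an unadjusted limma p under 0.05 the count was 1 of 26 (Cnn2) with arrays centred on their median, against 1464 of all 16232 genes. With arrays left out it was 0 to 3 of 26, against 969 to 2002 of all genes. The 3 were Acta2, Tagln and Pdlim3 without EKO array 4, where 1373 of all genes had such a p. Groups did not overlap in 1 of 31 genes without the level filter (Actg2), against 1777 of all 30063 genes. With arrays left out they did not overlap in 0 to 3 of the 26, against 1232 to 2227 of all 16232 genes. The 3 were Cald1, Cnn1 and Ppp1r12b without EKO array 1, the setting with 2227 of all genes. The direction held for 20 of 26 genes under the other alternatives and for 14 with each array left out. Every gene that turned had differed by at most 0.12. With quantile normalization Des (-0.04), Myh11 (-0.02) and Tpm2 (-0.03) turned, with array weights Des (-0.08), Myh11 (-0.0036) and Tpm2 (-0.08), with centring Lmod1 (0.02) and Myl9 (0.03), and with the adipocyte covariate Myl9 (0.07) and Tgfb1i1 (-0.02). The cause was not tested. With arrays left out the ranges were -0.16 to 0.22 (Des), -0.23 to 0.05 (Flna), -0.10 to 0.05 (Lmod1), -0.04 to 0.05 (Myh11), -0.12 to 0.15 (Myl9), -0.06 to 0.09 (Smtn), -0.05 to 0.11 (Srf), -0.02 to 0.26 (Synm), -0.14 to 0.03 (Synpo2), -0.08 to 0.09 (Tgfb1i1), -0.14 to 0.01 (Tpm1) and -0.19 to 0.28 (Tpm2). Of the 14 genes that kept their direction, 12 moved by over 1.5 times with an array left out. Beside Acta2, Tagln and Actn1, given above, these were Cald1 (-0.24 without EKO array 1, -0.02 without EKO array 2), Cnn1 (-0.07 without EKO array 4), Cnn2 (0.11 without EKO array 1), Csrp1 (-0.05 without EKO array 4), Mustn1 (0.03 without control array 1), Mylk (0.02 without EKO array 1, 0.14 without control array 1), Myocd (0.16 without control array 1), Pgm5 (-0.17 without control array 1, -0.04 without control array 2) and Ppp1r14a (-0.28 without control array 3, -0.09 without control array 4). The median over the genes tested was also below 0 with array weights (-0.01), without control array 1 (-0.05) and without control array 3 (-0.0032). With the replicate number as a block 0 genes passed, and 0 contractile genes had an unadjusted p under 0.05. Arrays of the same number share only that number: their deviations correlated at -0.16, 0.21, -0.24 and 0.13, and no control array matched its own number best. Signals near the neg control level limit 12 of the 31 genes.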

Other observations

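Markers of other cell types were listed beside the contractile genes, and none passed the limma threshold. Of 9 tested fibroblast markers 2 were higher and 7 lower in EKO arrays (median difference -0.27), with Pi16 at -0.75 and Dcn at -0.60. Adipocyte markers had 1 of 9 higher (median -0.57), with Cox8b at -1.05. Of 6 macrophage markers 2 were higher (median -0.06), with Adgre1 at -0.40 and Csf1r at 0.44. The 4 neutrophil markers were higher (median 0.88), with S100a8 at 1.15 and a mean of 9.39 on EKO array 2 against 6.02 to 7.89 on the other arrays. Both red cell markers tested were lower, Alas2 by -1.02 and Slc4a1 by -0.85. The Schwann cell marker S100b differed by -0.55. Of the 3 mesothelial markers tested, Upk3b differed by -1.09 and Lrrn4 by -0.87, and their mean was 9.44 on control array 4 against 6.23 to 7.40 on the other arrays.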
